A study of Mus musculus with 6 samples.

Results

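Here 10 genes are described: the interleukin-1 (IL-1) ligands Il1a and Il1b, the IL-1 receptor antagonist Il1rn, the IL-1 receptor Il1r1, the related cytokine Il18, the cytokine Tnf with its receptors Tnfrsf1a and Tnfrsf1b, and the inflammasome genes Casp1 and Nlrp3. They were taken by symbol from a table of RNA-Seq read counts, and 10 of 10 were found among its 32371 gene identifiers. The table holds 6 libraries of retinal cells from C57BL/6J mice, an age of 6 to 10 weeks and both sexes being the study's general statement for its mice. The 3 GFP libraries came from eyes injected with AAV2-GFP, and the 3 Ezh2-Y726D libraries from eyes injected with AAV2-Ezh2-Y726D, which carries an Ezh2 that lacks methyltransferase activity. In both groups the virus was placed in the vitreous 2 weeks before an optic nerve crush (ONC), and living CD90.2-positive cells were sorted 3 days after it. The promoter of the vectors and the number of mice behind a library were not given in the sources used here. The study asked how Ezh2 and this mutant act on the transcriptome of retinal ganglion cells (RGCs), and here that comparison is followed through the cytokine genes.

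IL-1α and IL-1β signal through the same receptor, Il1r1, and the protein made from Il1rn occupies that receptor without signalling. TNF acts through Tnfrsf1a, which is made by most cell types and can lead to inflammation or cell death, and through Tnfrsf1b, which is made chiefly by immune and endothelial cells. IL-1β and IL-18 are made as inactive precursors that caspase-1 cuts once a sensor such as NLRP3 has assembled an inflammasome, whereas IL-1α is active without that step. In the injured retina these cytokines come mainly from microglia and infiltrating leukocytes, and microglial IL-1α, TNF and C1q together are known to turn astrocytes reactive. As Ezh2 is a histone methyltransferase of Polycomb repressive complex 2, its target genes are usually repressed.

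Total counts ran from 9333244 to 23782520 per library, of which an rRNA gene took between 2.55% and 52.2%. Without that gene the GFP replicates 2 and 3 held only 5745352 and 4460732 counts, whereas the remaining libraries had 15280377 to 22024582. The low genes described here were thus measured least precisely in those 2 controls. Levels are given as CPM (counts per 1000000) of the library as scaled by TMM, edgeR's factor for differences in composition. Ezh2 itself, endogenous and vector transcripts not told apart, measured 22.7, 23.9 and 26.4 CPM in GFP replicates 1 to 3 against 65.2, 65.6 and 65.2 CPM in Ezh2-Y726D replicates 1 to 3. The sort did not leave RGCs alone. The glial gene Slc1a3 was at a mean of 654 CPM in GFP libraries and 593 CPM in Ezh2-Y726D libraries. The RGC markers were present too, with 1 of 9 lower and 2 higher. They summed to 469 to 479 CPM in the GFP libraries and 448 to 483 CPM in the Ezh2-Y726D libraries. The 6 rod markers summed to 5343 to 5482 CPM and 5877 to 6059 CPM, respectively. Such sums depend on the genes listed and are not shares of cells. Leukocyte transcripts were also present, with Ptprc, the gene of CD45, at a mean of 144 CPM in GFP libraries and 87.1 CPM in Ezh2-Y726D libraries. CD90.2 is carried by T cells as well as RGCs.

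Most of the 10 genes were lower in Ezh2-Y726D libraries, and 1, Il1a, was higher. By the quasi-likelihood test of edgeR, with P adjusted for the 18138 genes tested by the method of Benjamini and Hochberg, Il1r1, Il1rn, Il18, Tnfrsf1b, Casp1 and Nlrp3 fell and Il1a rose at an adjusted P under 0.05, while Il1b, Tnf and Tnfrsf1a did not pass. These are 6 of 10 genes lower, when 13.6% of all genes tested were lower, and 1 higher, when 13.9% were higher. Differentially expressed genes (DEGs), for which a fold change over 1.5 was also required, numbered 3 among the 10, Tnfrsf1b, Nlrp3 and Il1rn, and these 3 were lower. Over all genes 5.50% were DEGs that were lower and 2.52% were DEGs that were higher. For the same 6 genes every Ezh2-Y726D library lay below every GFP library, a pattern that 18.9% of all genes showed, and for Il1a every Ezh2-Y726D library lay above, as for 19.7% of all genes. The median log2 fold change (Ezh2-Y726D minus GFP) of the 10 genes was -0.41, beside 0.0019 for all genes tested.

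**Figure D1:**
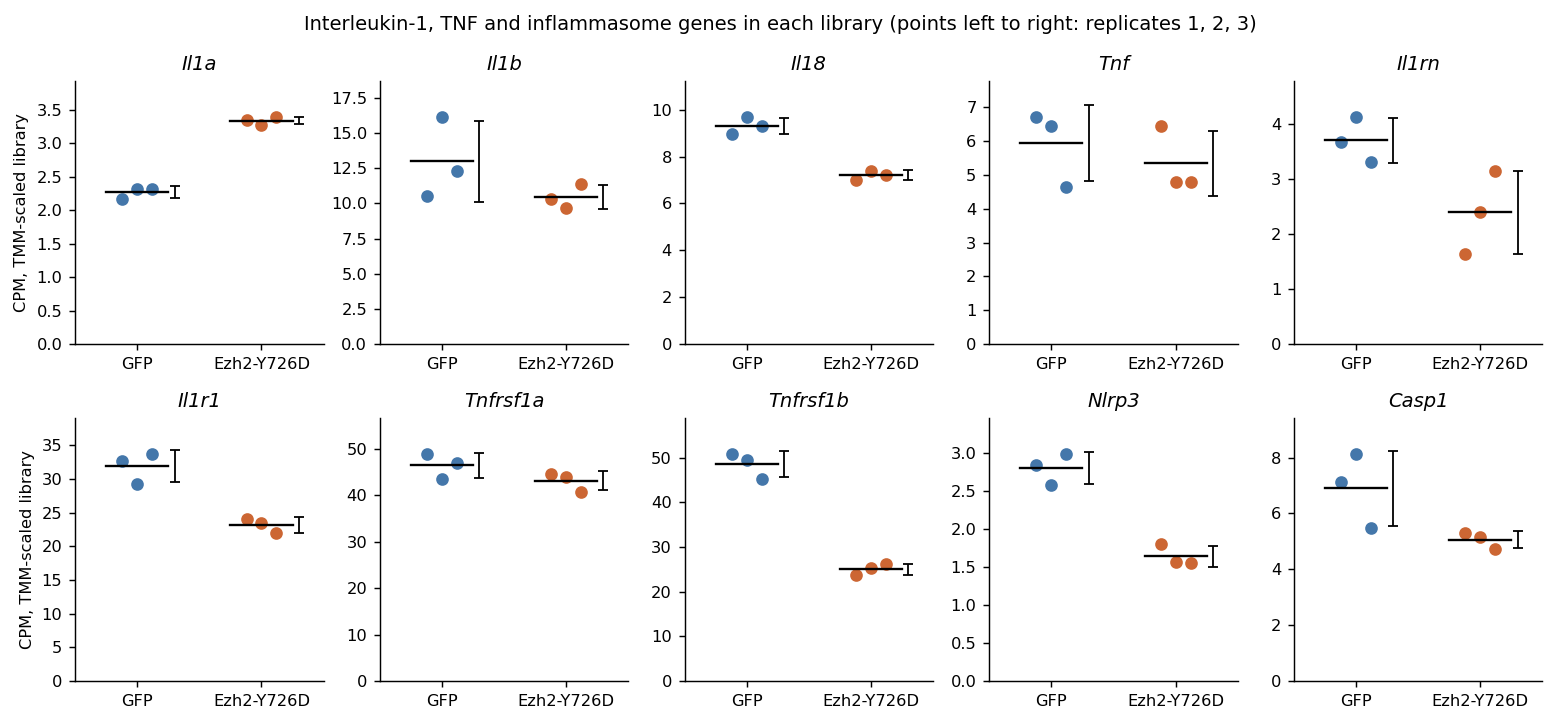
Level of each of the 10 genes in each library, in CPM of the TMM-scaled library, with every vertical axis starting at 0. Points are libraries, lines are group means and bars are ± 1 SD (n = 3); the groups are apart for Il1a, Il18, Il1rn, Il1r1, Tnfrsf1b, Nlrp3 and Casp1 and overlap for Il1b, Tnf and Tnfrsf1a.

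Among the ligands, Il1a rose and Il1b did not pass the test. Il1a (ENSMUSG00000027399, GRCm38 chr2:129299610-129309972, minus strand) had 2.17, 2.32 and 2.32 CPM in GFP replicates 1 to 3 against 3.35, 3.28 and 3.39 CPM in Ezh2-Y726D replicates 1 to 3, the order kept below. The 3 controls lay close to each other and below the lowest Ezh2-Y726D library. Il1a rose by a log2 fold change of 0.58 ± 0.18 (SE, 95% interval 0.21 to 0.96, edgeR adjusted P = 0.0167), just under the DEG threshold of 0.585 on that scale. It rested on 62, 18 and 14 counts in the GFP libraries and on 89, 67 and 100 counts in the Ezh2-Y726D libraries. With DESeq2 its log2 fold change was 0.58 and its adjusted P was 0.159, and edgeR gave an adjusted P of 0.173 without GFP replicate 1 and 0.0526 without Ezh2-Y726D replicate 3. Of its exonic bases 11.2% lie under Gm14023 on the opposite strand, which had between 2 and 11 counts in any library.

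The neighbouring Il1b (ENSMUSG00000027398, chr2:129364570-129371139, minus strand), the inducible IL-1 ligand that needs caspase-1, had 10.5, 16.1 and 12.3 CPM in the controls against 10.3, 9.7 and 11.4 CPM with Ezh2-Y726D. GFP replicate 2 was the highest of the 6, and GFP replicate 1 lay among the Ezh2-Y726D libraries. The log2 fold change was -0.20 ± 0.12 (95% interval -0.44 to 0.04, edgeR adjusted P = 0.227), so that the interval held both no difference and a fall as large as that of Il18. The value turned on GFP replicates 1 and 2. Without replicate 1, which holds most of the control counts, Il1b fell by 0.45 on the log2 scale (edgeR adjusted P = 0.0118), and without replicate 2 the log2 fold change was -0.05 (edgeR adjusted P = 0.815). With replicate 1 as the only control, assumed to vary like the Ezh2-Y726D libraries, the log2 fold change was 0.011. Whether Il1a and Il1b differ in their response was not tested. Their count ratio within a library, chosen after its values were seen and given without a test, was 0.208, 0.144 and 0.189 Il1a counts per Il1b count in the GFP libraries and 0.325, 0.338 and 0.298 in the Ezh2-Y726D libraries.

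Promoters of the 2 IL-1 ligand genes are shown because their transcripts lie side by side on chromosome 2. Each window is RefSeq sequence of GRCm38.p6, from 250 bases before to 50 bases after the transcript start and read 5′ to 3′ on the gene's strand. The motifs searched were, on both strands and with matches in capitals, the TATA box (TATAAA), the PU.1 core (GAGGAA, a factor of myeloid cells), AP-1 (TGANTCA) and the κB motif of NF-κB.
Il1a: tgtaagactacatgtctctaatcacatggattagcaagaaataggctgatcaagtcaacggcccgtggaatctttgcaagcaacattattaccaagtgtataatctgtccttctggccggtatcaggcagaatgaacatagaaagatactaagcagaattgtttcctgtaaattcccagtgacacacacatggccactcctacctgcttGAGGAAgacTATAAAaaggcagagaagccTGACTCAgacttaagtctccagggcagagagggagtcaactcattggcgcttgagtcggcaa
Il1b: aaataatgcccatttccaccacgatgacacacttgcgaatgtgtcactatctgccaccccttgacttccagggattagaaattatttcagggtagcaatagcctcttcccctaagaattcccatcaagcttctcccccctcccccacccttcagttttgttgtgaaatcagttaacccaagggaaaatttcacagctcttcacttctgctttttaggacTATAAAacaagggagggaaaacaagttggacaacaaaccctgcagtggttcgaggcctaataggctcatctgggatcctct
In the Il1a window (chr2:129309923-129310222, minus strand) the PU.1 letters began 41 bases, the TATA letters 32 bases and the AP-1 letters 12 bases before the start, without overlap. The Il1b window (chr2:129371090-129371389, minus strand) held 1 match, TATA letters 31 bases before the start. Over the 14 windows of the 10 genes, PU.1 letters were found in 5 windows, TATA letters in 5, AP-1 letters in 2 (of Il1a and Il1rn) and the κB motif in 2 (of Il1r1 and Nlrp3). Among 32851 promoter windows of the genome these motifs were present in 28.3%, 13.6%, 7.81% and 4.51%, respectively. Such matches describe letters and not bound sites.

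The third cytokine of the IL-1 family, Il18 (ENSMUSG00000039217, chr9:50554827-50581840, plus strand), is kept as a ready precursor in many cells. Its level was 8.98, 9.67 and 9.29 CPM in the GFP libraries and 6.99, 7.4 and 7.22 CPM in the Ezh2-Y726D libraries. The spread within groups was small and the groups were apart. Il18 fell by 0.35 ± 0.11 on the log2 scale (edgeR adjusted P = 0.0136), or 1.28-fold. With DESeq2 the adjusted P was 0.114, and without GFP replicate 1 edgeR gave 0.0511.

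Tnf (ENSMUSG00000024401, chr17:35199381-35202007, minus strand) encodes the cytokine that microglia release early after injury. The controls had 6.7, 6.45 and 4.64 CPM and the Ezh2-Y726D libraries 6.43, 4.8 and 4.78 CPM. Both groups held libraries near the lower and near the upper end. The log2 fold change of Tnf was -0.23 ± 0.15 (95% interval -0.53 to 0.07, edgeR adjusted P = 0.284), and it passed in 0 of 6 fits that left out a library. The value itself moved widely among those fits, from -0.39 without Ezh2-Y726D replicate 1 to -0.08 without GFP replicate 1. A fall of up to 0.53 on the log2 scale was not excluded by this interval, nor was a small rise.

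The antagonist Il1rn (ENSMUSG00000026981, chr2:24336853-24351494, plus strand) was among the least expressed of the 10 genes per length and was the most variable, relative to its mean, between Ezh2-Y726D libraries. Its level was 3.68, 4.13 and 3.32 CPM in the GFP libraries and 1.65, 2.4 and 3.15 CPM in the Ezh2-Y726D libraries. Ezh2-Y726D replicate 3 came close to the lowest control. Il1rn fell by 0.62 ± 0.21 on the log2 scale (edgeR adjusted P = 0.0248). This call depended on single libraries, since only 2 of 6 fits that left out a library kept it. The log2 fold change was -0.39 without Ezh2-Y726D replicate 1 (edgeR adjusted P = 0.151) and -0.90 without Ezh2-Y726D replicate 3 (edgeR adjusted P = 0.00253). It moved little in the other fits that lost the call. It was -0.64 without GFP replicate 1 (edgeR adjusted P = 0.116) and -0.57 without GFP replicate 2 (edgeR adjusted P = 0.0699). Without Ezh2-Y726D replicate 2 it was -0.61 (edgeR adjusted P = 0.0585), and DESeq2 gave -0.62 (adjusted P = 0.132).

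Counts of the antagonist were also set against those of the agonists within a library, where no scaling enters. These are ratios of counts, not of levels per length, so they are compared between libraries only. There were 0.352, 0.256 and 0.27 Il1rn counts per Il1b count in the GFP libraries and 0.161, 0.247 and 0.277 in the Ezh2-Y726D libraries. These groups overlapped, with a difference of -0.38 in the mean log2 ratio (exact permutation test, 2-sided P = 0.3, 0.3 after adjustment over 3 ratios). Against Il1a and Il1b counts together the ratio was 0.292, 0.224 and 0.227 in the GFP libraries and 0.121, 0.185 and 0.213 in the Ezh2-Y726D libraries. Every Ezh2-Y726D value of this second ratio lay below every control, by a difference of -0.55 in the mean log2 ratio (exact permutation test, 2-sided P = 0.1, adjusted P = 0.15). Both differences leaned on Ezh2-Y726D replicate 1, without which they were -0.15 for Il1b alone and -0.31 for both agonists, and without GFP replicate 1 they were -0.24 and -0.42. A P of 0.1 is the smallest that 3 libraries against 3 can give, so this design could not reach 0.05.

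Il1r1 (ENSMUSG00000026072, chr1:40225080-40317257, plus strand), the signalling receptor of both IL-1 ligands, is known in the nervous system chiefly from endothelial cells and some neurons. Its level was 32.7, 29.2 and 33.7 CPM in the controls against 24.1, 23.5 and 21.9 CPM with Ezh2-Y726D. The lowest control stood clear of the highest Ezh2-Y726D library. Il1r1 fell by 0.47 ± 0.07 on the log2 scale (edgeR adjusted P = 2.88e-06), or 1.38-fold, which is under the DEG threshold for fold change. It passed in 6 of 6 fits that left out a library, with log2 fold changes from -0.51 to -0.43, and also with DESeq2. Of 7 endothelial markers 2 were lower, Pecam1 (-0.33, edgeR adjusted P = 0.0371) and Kdr (-0.13, edgeR adjusted P = 0.0112), and none was higher. Those that did not pass went both ways, from Cdh5 at -0.34 up to 0.33. The median log2 fold change of the 7 was 0.0165. Their summed level, 955 to 1016 CPM in the GFP libraries and 900 to 964 CPM in the Ezh2-Y726D libraries, was almost wholly Kdr and Flt1. Of 6 pericyte and smooth muscle markers 5 were lower, and the summed level of these markers went from between 216 and 238 CPM to between 168 and 183 CPM. Their part in the Il1r1 result was not tested.

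Of the TNF receptors, Tnfrsf1b fell and Tnfrsf1a did not pass the test. Tnfrsf1b (ENSMUSG00000028599, chr4:145213463-145246870, minus strand), the receptor made by leukocytes, microglia and endothelium, had 50.8, 49.5 and 45.3 CPM in the controls against 23.7, 25.3 and 26.1 CPM with Ezh2-Y726D. All controls were thus well above all Ezh2-Y726D libraries. Tnfrsf1b fell 1.96-fold, a log2 fold change of -0.97 ± 0.06 (95% interval -1.10 to -0.85, edgeR adjusted P = 9.72e-13). This call was kept in 6 of 6 fits without a library, with log2 fold changes from -1.01 to -0.93, and by DESeq2.

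Tnfrsf1a (ENSMUSG00000030341, chr6:125349362-125362484, plus strand), the death domain receptor found on most cells, had 48.9, 43.6 and 46.9 CPM in the controls against 44.6, 44.0 and 40.8 CPM with Ezh2-Y726D. The groups overlapped, with 2 Ezh2-Y726D libraries above the lowest control. Its log2 fold change was -0.13 ± 0.06 (95% interval -0.25 to -0.0054, edgeR unadjusted P = 0.0413, adjusted P = 0.119), so that a fall larger than 0.25 lies outside the interval. In fits that left out a library it ranged from -0.17 without GFP replicate 2 to -0.07 without GFP replicate 1 and passed in 0 of 6. Counts of Tnfrsf1b per Tnfrsf1a count were 1.04, 1.14 and 0.965 in the GFP libraries and 0.531, 0.576 and 0.64 in the Ezh2-Y726D libraries. This ratio of counts, which is not per length, was near 1 in the controls and well below 1 in the Ezh2-Y726D libraries. The difference in the mean log2 ratio was -0.85, with no overlap between groups (exact permutation test, 2-sided P = 0.1, the smallest possible, adjusted P = 0.15 over 3 ratios).

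The promoter windows of the TNF receptors, shown as the receptors of 1 cytokine of which only Tnfrsf1b was called, differed in the motifs searched.
Tnfrsf1a: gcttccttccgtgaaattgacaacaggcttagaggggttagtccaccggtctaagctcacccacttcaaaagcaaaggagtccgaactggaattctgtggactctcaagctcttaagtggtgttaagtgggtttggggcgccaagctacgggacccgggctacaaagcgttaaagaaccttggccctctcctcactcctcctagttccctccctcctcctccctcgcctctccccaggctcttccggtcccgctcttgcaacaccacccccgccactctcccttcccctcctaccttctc
Tnfrsf1b: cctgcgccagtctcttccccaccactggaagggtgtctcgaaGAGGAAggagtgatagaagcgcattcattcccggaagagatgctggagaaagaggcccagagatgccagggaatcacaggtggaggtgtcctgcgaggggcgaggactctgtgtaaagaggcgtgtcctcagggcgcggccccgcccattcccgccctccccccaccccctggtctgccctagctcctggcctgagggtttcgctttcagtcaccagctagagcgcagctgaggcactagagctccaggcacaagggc
The Tnfrsf1a window (chr6:125349473-125349772, plus strand) held none of the 4 motifs. In the Tnfrsf1b window (chr4:145246821-145247120, minus strand) PU.1 letters began 208 bases before the start. Such letters were present in 28.3% of promoter windows of the genome, and a link between this match and the calls was not tested.

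**Figure D2:**
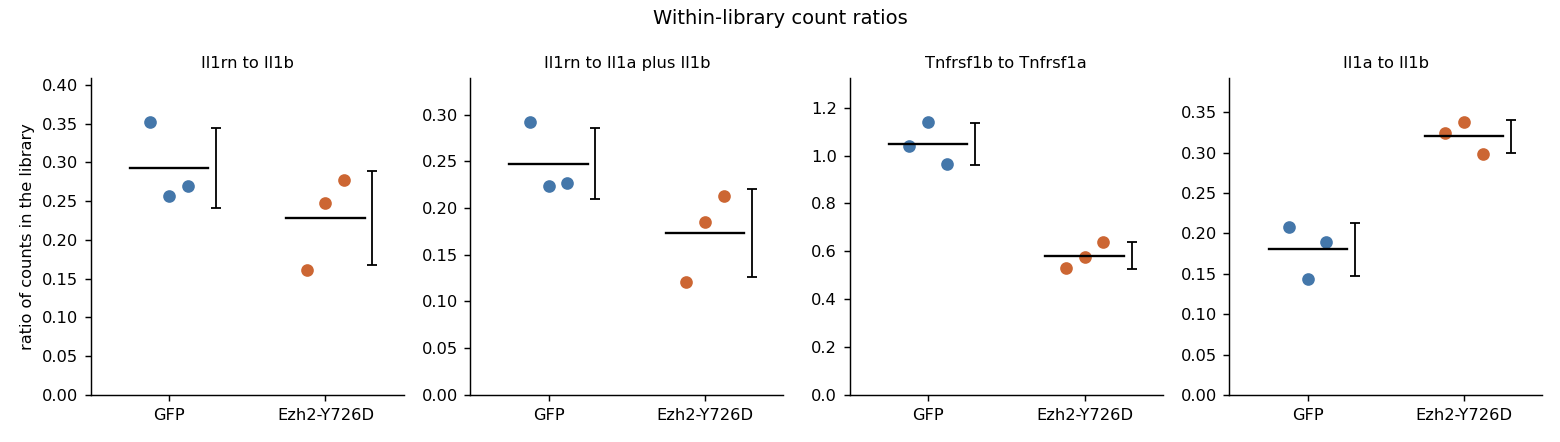
Ratios of counts within each library for the antagonist against its agonists, for the TNF receptors and for the IL-1 ligands, with vertical axes starting at 0. Points are replicates 1, 2 and 3 from left to right, lines are group means and bars ± 1 SD (n = 3); the Tnfrsf1b to Tnfrsf1a ratio had a mean of 1.05 in the GFP and 0.583 in the Ezh2-Y726D libraries, and the Il1a to Il1b ratio was chosen after its values were seen.

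Both inflammasome genes fell. Nlrp3 (ENSMUSG00000032691, chr11:59541568-59566956, plus strand), the sensor that is itself induced by NF-κB, had 2.84, 2.58 and 2.99 CPM in the controls against 1.8, 1.57 and 1.56 CPM with Ezh2-Y726D. The groups were separated by more than the range within either. Nlrp3 fell 1.7-fold, a log2 fold change of -0.77 ± 0.21 (edgeR adjusted P = 0.00503), on 81, 20 and 18 counts in the GFP libraries and 48, 32 and 46 in the Ezh2-Y726D libraries. DESeq2 gave an adjusted P of 0.0661, and edgeR without GFP replicate 1 gave 0.0719.

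Casp1 (ENSMUSG00000025888, chr9:5298517-5307265, plus strand), the protease that matures IL-1β and IL-18, had 7.12, 8.13 and 5.47 CPM in the controls against 5.3, 5.15 and 4.71 CPM with Ezh2-Y726D. GFP replicate 3, the shallowest library, came close to the Ezh2-Y726D libraries without overlapping them. Casp1 fell by 0.48 ± 0.13 on the log2 scale (edgeR adjusted P = 0.00641), or 1.4-fold. Its adjusted P was 0.0781 with DESeq2 and 0.0751 with edgeR when GFP replicate 1 was left out. In counts thinned to the shallowest library the log2 fold change of Casp1 was only -0.19 (edgeR adjusted P = 0.6).

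**Figure D3:**
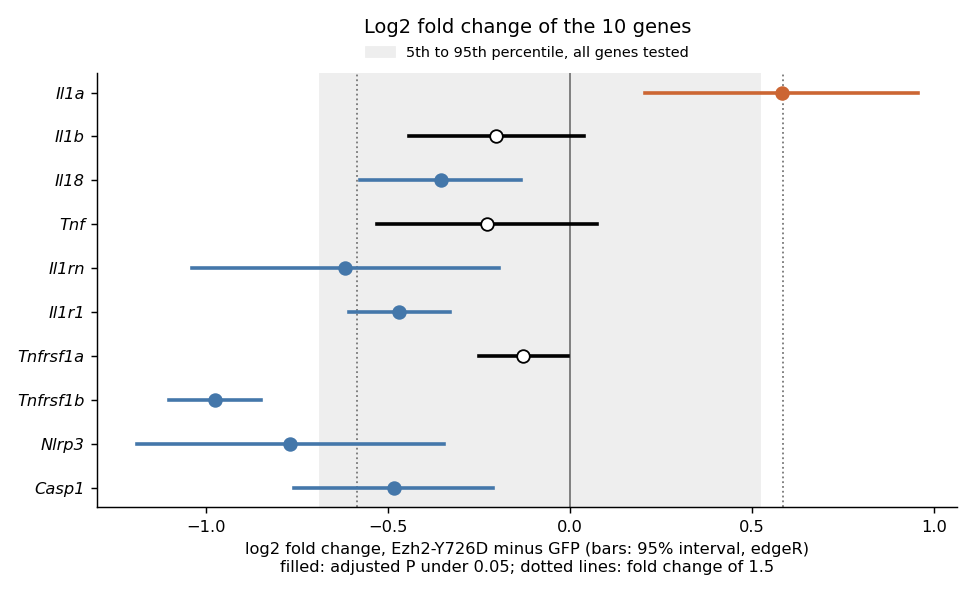
Log2 fold change (Ezh2-Y726D minus GFP) of the 10 genes with 95% intervals from edgeR's quasi-likelihood fit; filled points passed an adjusted P of 0.05, dotted lines mark a fold change of 1.5, and the grey band spans the 5th to 95th percentile of all genes tested (-0.69 to 0.52). Tnfrsf1b at -0.97 lies farthest from 0 and Il1a at 0.58 is the only filled point above 0.

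Between genes, levels can be compared only per length, as CPM per kilobase of exon. In the GFP libraries Tnfrsf1a led with 17.9 CPM per kb, followed by Tnfrsf1b with 12.7, Il18 with 9.03, Il1b with 6.79, Il1r1 with 5.01, Casp1 with 4.61, Tnf with 3.62, Il1a with 1.15, Nlrp3 with 0.691 and Il1rn with 0.67 CPM per kb. The neighbours Il1r1 and Casp1, Casp1 and Tnf, and Nlrp3 and Il1rn overlapped between libraries in that order, and the other neighbours did not. In the Ezh2-Y726D libraries Tnfrsf1b dropped to 6.56 CPM per kb, where its libraries overlapped those of Il18 at 6.99. The antagonist message thus remained the lowest or next to lowest per length in both groups, below both of the IL-1 ligands.

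Markers of several cell types, immune and neuronal, moved in the same comparison. Of 6 pan-leukocyte markers 6 fell, their summed level going from between 855 and 941 CPM to between 461 and 543 CPM, and of 8 monocyte and macrophage markers tested 7 fell, from between 130 and 142 CPM to between 55.9 and 66.3 CPM for the whole list of 9. Markers of activated phagocytes went from between 3427 and 3632 CPM, most of it Apoe, to between 2146 and 2171 CPM with 9 of 11 lower and 1 higher, and 6 of 6 T cell markers fell, from between 93.8 and 97.8 CPM to between 54.6 and 61.5 CPM. Homeostatic microglia markers moved less and in both directions, with 5 of 11 lower and 2 higher and summed levels of 451 to 501 CPM in the GFP libraries and 356 to 418 CPM in the Ezh2-Y726D libraries. Of 5 B cell markers 2 fell (Cd79b and Ms4a1), while Ighm, which made up most of their sum, did not pass (-0.02). Among retinal neurons, 7 of 7 amacrine cell markers rose, their summed level going from between 987 and 1061 CPM to between 1538 and 1598 CPM, and 6 of 7 bipolar cell markers fell and 1 rose, from between 1007 and 1025 CPM to between 829 and 853 CPM. Of 6 rod markers 2 rose and none fell. Neutrophil markers were near 0 in both groups, at 1.66 CPM or less in sum, and no gene of the leukocyte lists that was found was at 0 in all libraries. Fewer cells of a type and less RNA per cell cannot be told apart in such libraries, and the part of these cells in the results above was not tested.

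Set against microglia markers of the same library, groups did not overlap for 1 gene that was higher, Il1a, and 2 that were lower, Tnfrsf1b and Nlrp3. On this scale 49.5% of all genes tested had every Ezh2-Y726D library above every control and 5.35% every one below, so that Il1a shared its position with a large part of all genes. Per 1000 counts of the 11 homeostatic microglia markers there were 4.83, 4.63 and 4.89 Il1a counts in the GFP libraries and 9.41, 8.13 and 8.11 in the Ezh2-Y726D libraries. The difference for Il1a was 0.84 in the mean log2 ratio. For Tnfrsf1b there were 113, 98.8 and 95.3 per 1000 in the controls against 66.6, 62.8 and 62.4 with Ezh2-Y726D, a difference of -0.68. Nlrp3 went from 6.31, 5.15 and 6.28 to 5.07, 3.88 and 3.73 per 1000, a difference of -0.49. Each of these 3 gave the smallest P that the exact permutation test allows (2-sided P = 0.1, adjusted P = 0.333 over 10 genes), and the other 7 genes overlapped between groups, with differences from -0.39 for Il1rn to 0.17 for Tnfrsf1a and -0.0081 for Il1b. With the pan-leukocyte markers as denominator, 9 of 10 differences were above 0, the exception being Tnfrsf1b at -0.13, whereas 3 of 10 were above 0 with the microglia markers. The pan-leukocyte markers themselves fell, from between 855 and 941 CPM to between 461 and 543 CPM in sum. A gene that fell less than their sum therefore lies above 0 on that scale. The share of all genes above 0 was not computed for either denominator, so these counts show nothing particular to the 10 genes.

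The other genes of these pathways come from lists. Of 23 further IL-1 family ligands, receptors and adaptors 18 were matched and tested, of which 10 fell, 7 of them DEGs, and none rose, with a median log2 fold change of -0.34. On the IL-18 side, the receptor subunits Il18r1 (-0.84) and Il18rap (-0.92) and the soluble inhibitor Il18bp (-0.72, from 40.2 ± 1.87 to 24.1 ± 2.05 CPM, SD, n = 3, edgeR adjusted P = 1.61e-09) were DEGs. Il1rl2, the receptor of IL-36, fell by 1.03 and Sigirr, a receptor that dampens IL-1 signalling, fell by 0.69 on the log2 scale. The remaining DEGs rested on low counts and were named after their values were seen. They were Il1rl1 (-1.68, on 7 to 74 counts per library) and Il1r2 (-0.90, on 15 to 51 counts per library). Il33, an alarmin of the same family made by glia, was at 93.7 and 89.2 CPM and did not pass (-0.06).

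Against the same shares over all genes tested (13.6% lower, 13.9% higher, 5.50% DEGs that were lower), 15 of 30 genes of the TNF pathway fell and none rose. Their median log2 fold change was -0.23, and 6 were DEGs. Those averaging 50 normalized counts or more were the necroptosis genes Mlkl (-1.22) and Ripk3 (-1.19), the apoptosis protease gene Casp8 (-0.995, from 16.5 to 8.4 CPM), the inhibitor of apoptosis Birc3 (-0.82) and the lymphotoxin subunit Ltb (-0.65). The remaining DEG was the lymphotoxin gene Lta (-1.2), on 5 to 40 counts per library. Of 17 further inflammasome genes tested 11 fell, 8 of them DEGs, and none rose, at a median of -0.54. They included the pyrin gene Mefv (-1.18), the noncanonical caspase Casp4 (-1.01), the ATP-gated channel P2rx7 (-0.90), and Naip2 (-0.93) and Naip5 (-0.90), members of a family of near-identical genes whose values are uncertain because reads may have been split between them. The adaptor Pycard (-0.59), which joins NLRP3 to caspase-1, and the pore protein gene Gsdmd (-0.75) fell too, both named after their values were seen.

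Downstream of the receptors, of 14 genes for NF-κB subunits and inhibitors 9 fell and none rose, beside 13.6% lower and 13.9% higher over all genes tested. None was a DEG, which tells little for 14 genes when 5.50% of all genes were DEGs that were lower. The median was -0.26, with Nfkbib, Nfkbid and the kinase genes Chuk, Ikbkb and Ikbkg not passing. Of 22 genes known to be induced by IL-1 or TNF 16 were tested, of which 6 fell, 1, Sod2, rose (0.12, edgeR adjusted P = 0.0321), and 9 did not pass, at a median of -0.11. Their 2 DEGs were the complement gene C3, which went from 177 ± 5.24 to 88.9 ± 5.48 CPM (SD, n = 3), and the adhesion molecule gene Icam1 (-0.67). Il6, Cxcl2, Sele, Nos2, Csf2 and Mmp3 had too few counts to be tested.

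**Figure D4:**
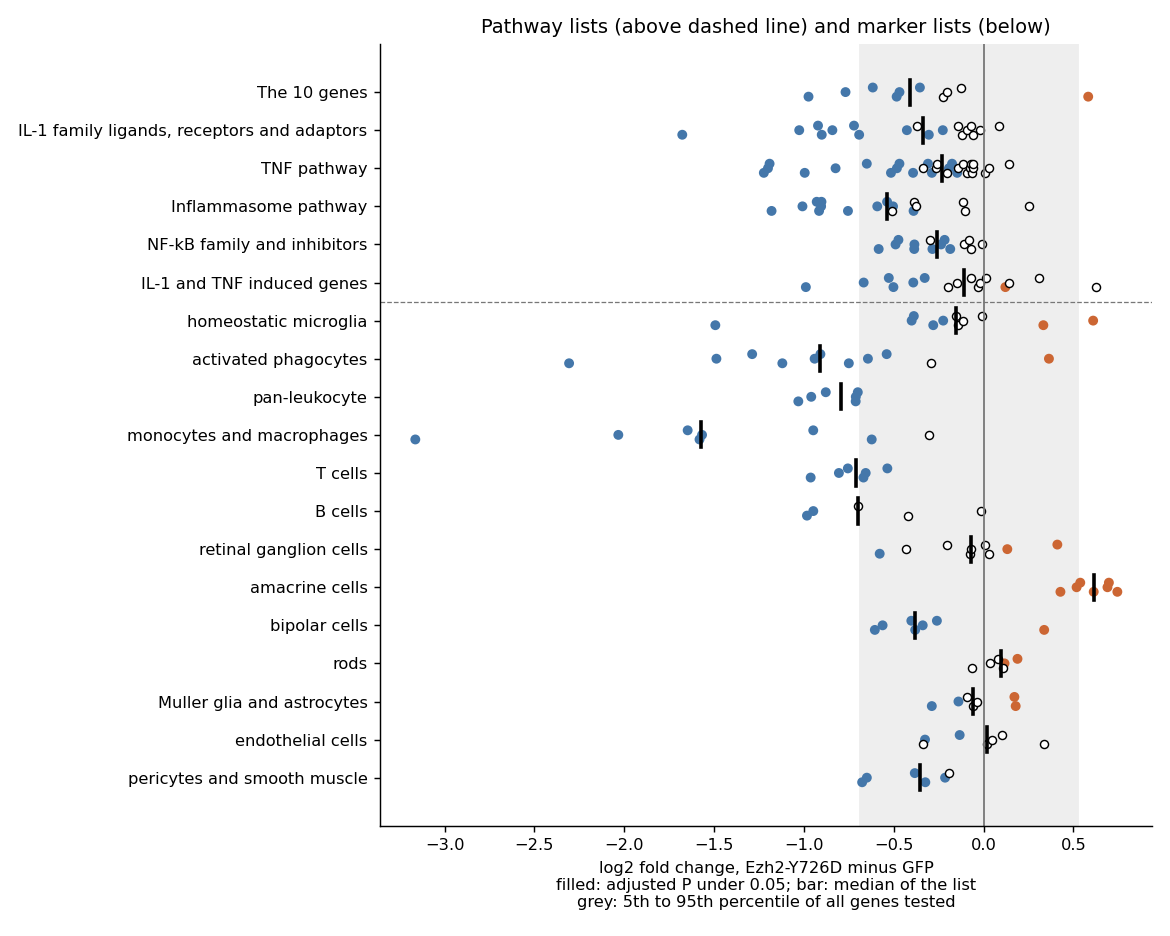
Log2 fold changes (Ezh2-Y726D minus GFP) of the 10 genes, of 5 pathway lists and, below the dashed line, of the cell type marker lists with genes tested; each point is a gene, filled where the adjusted P was under 0.05, vertical bars are list medians and the grey band spans the 5th to 95th percentile of all genes tested. The median is -0.41 for the 10 genes, -0.54 for the inflammasome list, -0.80 for the pan-leukocyte markers and -0.16 for the homeostatic microglia markers.

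How firmly each gene stands can be read from its value in other fits. Tnfrsf1b and Il1r1 are the 2 genes that kept their call with DESeq2, in 6 of 6 fits without a library, and in counts thinned to the depth of the shallowest library. In Il18, Casp1 and Nlrp3 the call was lost when GFP replicate 1, the deepest control, was left out, and their log2 fold changes then were -0.40, -0.46 and -0.74. It was lost in thinned counts too, at -0.26 for Il18, -0.19 for Casp1 and -0.57 for Nlrp3. In Il1a it was lost in 2 of 6 fits and in Il1rn in 4 of 6. When libraries were scaled by their total counts, which the rRNA gene inflates, the median of all genes moved to 0.49 and no member passed; relative to that median Il1a stood at 0.54 and the other 9 genes between -0.96 and -0.12.

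**Figure D5:**
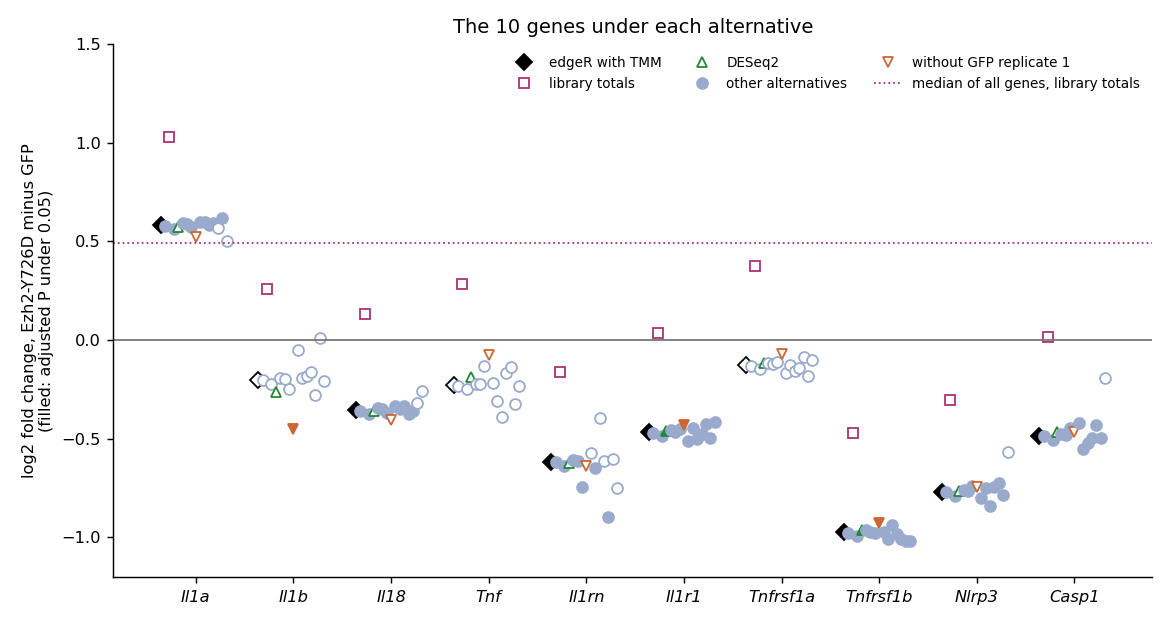
Log2 fold change of the 10 genes in each alternative fit (diamonds: edgeR with TMM; squares: scaling by library totals; triangles: DESeq2 and edgeR without GFP replicate 1; circles: the others), filled where the adjusted P was under 0.05. Tnfrsf1b keeps between -1.01 and -0.93 in the fits without a library, and under library totals the square of Il1a lies above, and those of the other 9 genes below, the dotted median of all genes, 0.49.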

How the data were processed

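Per the labels the 6 libraries were prepared with a kit that marks strand, and the authors deposited raw read counts (whole numbers, no normalization) for each gene. The submitters' processing notes name STAR 2.7.0d and GRCm38. The counting tool, annotation and strand setting were not given in the sources used here. Libraries were grouped by their labels, and as nothing says that replicates came from separate mice, p-values measure the spread between these samples. From the deposited counts, genes were tested with edgeR 4.0.16 in R 4.3.3 (TMM, filterByExpr with 10 counts and a total of 15, quasi-likelihood test, Benjamini-Hochberg adjustment over 18138 genes; SE as the log2 fold change over the square root of F). The fit is on counts and weighs deep libraries more, so a fold change can differ from the ratio of mean CPM. The procedure was tested on simulated data. Coordinates, exon lengths and exonic overlaps are those of GENCODE vM21, promoter windows those of RefSeq. Within-library ratios of counts were tested by exact permutation.

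The members and lists were chosen with earlier results of these data known. Further genes were named by a rule: of each pathway list at most 5 DEGs with the largest change whose higher group averaged 50 normalized counts or more, at most 3 of each marker list, and those needed to account for a count of 5 or fewer. Alternatives were RLE size factors, library totals with and without the rRNA gene CT010467.1, DESeq2 1.42.0, each library left out, a replicate block, a stricter filter (10 counts in each library) or none, other fold thresholds and another denominator. Added after seeing the data were GFP replicate 1 as the only control and thinned counts.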

Additional observations from a re-analysis of the deposited data

How the results depend on the processing

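Of 150 values for the 10 genes under the alternatives, 117 kept their direction and their side of the threshold, 25 kept only their direction, 1 (Il1b without GFP replicate 1) passed newly and 7 reversed. Scaling by library totals reversed Il1b (0.26), Il1r1 (0.0347), Il18 (0.13), Tnf (0.29), Tnfrsf1a (0.38) and Casp1 (0.018) and left 65 DEGs (29.2% of them lower, against 68.6% of 1455) and 0 of the 10 genes past an adjusted P of 0.05 in either direction; the median of all genes moved to 0.49 there. With library totals without CT010467.1 there were 1458 DEGs and 3 of the 10 genes were DEGs that were lower. GFP replicate 1 as the only control gave Il1b at 0.011 and counted Il1a as 1 DEG that was higher, a call whose spread comes from the Ezh2-Y726D libraries alone since the lone control is assumed to vary like them. No filter and at least 10 counts in every library also made Il1a 1 DEG that was higher. DESeq2 called 1 of the 10 a DEG, passed 2 as lower and 0 as higher at its adjusted P, and counts thinned to the shallowest library likewise 1, 2 and 0; the cause was not tested beyond that depth. Leaving out each library gave 1 to 3 DEGs that were lower and 0 to 1 that were higher, with 3 to 6 lower and 0 to 1 higher at an adjusted P under 0.05, the lowest counts without GFP replicate 1. No fold change threshold gave 4988 DEGs, 6 of the 10 genes lower and 1 higher, and a fold change over 2 gave 443 DEGs and 0 of the 10. With pan-leukocyte markers, which themselves fell, as denominator 9 of 10 genes were higher, and the share of all genes was not computed on that scale.

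The labels do not say whether replicate numbers pair the libraries. Same-numbered deviations correlated weakly, at 0.136, 0.051 and 0.0391, though every library correlated best with its own number, a hint from the data and not the design. With the replicate block there were 1403 DEGs, and 3 of the 10 genes were DEGs that were lower, 6 passed as lower and 1 as higher.

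Depth limited the low genes: Il1a, Il1rn and Nlrp3 rest on 14 to 32 counts in GFP replicates 2 and 3, so a missing call there is no sign that values were equal.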
